A study of Mus musculus with 2 samples.

Results

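The clustered histone genes are the copies of the histone genes that lie together in arrays in the mouse genome. They were taken as every gene of the deposited matrix whose symbol starts with Hist1h, Hist2h, Hist3h or Hist4h, which gave 67 of 32285 genes. By histone type they were 6 H1, 18 H2A, 18 H2B, 12 H3 and 13 H4 genes. By array, 54 belong to Hist1 on chromosome 13, 10 to Hist2 on chromosome 3, 2 to Hist3 on chromosome 11 and 1 to Hist4 on chromosome 6.

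The study grew colonies from cells of the aorta and sequenced the RNA of single cells from them in droplets. Per the labels' protocols, the aortas came from 2 male C57BL/6J mice aged 12 weeks, the cells grew for 14 days in methylcellulose, colony forming unit - macrophage (CFU-M) colonies were taken apart, and cells that excluded DAPI were sorted. The matrix also holds 3 tag features named Cafum, Matrigel and Macrophages. They are read here as marking 3 suspensions pooled in its 1 library. No allele or agent beyond the culture is named. The labels describe this 1 culture for the library and do not explain the tags, so whether all suspensions came from it is not known, and nothing in the labels ties a cell to 1 of the mice.

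Core histones H2A, H2B, H3 and H4 form the octamer around which DNA winds, and H1 binds the linker DNA between octamers. Dividing cells need a new set of histones for each copied genome, and the clustered genes are the main source of these during S phase. Most of their mRNAs end in a conserved stem-loop in place of a poly(A) tail. A kit that primes on poly(A), such as the 10x 3′ kit used here, therefore counts their tailed or internally primed molecules and not all of their mRNA. Replacement histones, such as H2afz and H3f3b, come from genes outside the arrays, have poly(A) tails and are made through the cell cycle as well as in resting cells.

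Promoter sequences were matched for 62 of the 67 members in RefSeq (build GRCm38.p6, the assembly of mm10), each running from 250 bases before to 50 bases after the start of the gene. Of those windows, 53 (85.5%) held the CCAAT box (CCAAT, both strands), against 37.4% of 32851 promoters of the same length. It was in all 6 H1, 18 H2A, 16 H2B and 10 H3 windows and in 3 of 12 H4 windows. The TATA box (TATAAA, both strands) was in 35 (56.5%), against 13.6% of all promoters. The octamer (ATTTGCAT, both strands) was in 7 of 18 H2A and 6 of 16 H2B windows and in 0 of the H1, H3 and H4 windows, against 1.74% of all promoters. Some H2A and H2B genes face away from each other from a shared start region, so that their windows overlap and can hold the same match. The H1 box (AAACACA, both strands) was in 5 of 6 H1, 2 of 18 H2A and 2 of 16 H2B windows and in 0 of the H3 and H4 windows, against 7.18% of all promoters. A match describes the letters of the window and is not shown to be a bound site.

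These 6 windows are printed to show copies of 4 types that differed in the results below or in their motifs. Hist1h1b (chr13:21780576-21780875, minus strand), Hist1h3c (chr13:23745472-23745771, minus strand) and Hist1h2af (chr13:23533625-23533924, plus strand) were far higher in cycling than in non-cycling mast cell-like cells. Hist1h4i (chr13:22041313-22041612, minus strand) is the H4 gene with the most molecules among those without a CCAAT box. Hist1h1c (chr13:23738557-23738856, plus strand) and Hist3h2a (chr11:58954435-58954734, plus strand) were not higher in cycling mast cell-like cells. Each sequence runs 5′ to 3′ on the strand of its gene, in build GRCm38.p6 from RefSeq, and capitals mark any of the motifs named above on either strand (ATTGG is CCAAT on the other strand, and ATGCAAAT is the octamer).
Hist1h1b: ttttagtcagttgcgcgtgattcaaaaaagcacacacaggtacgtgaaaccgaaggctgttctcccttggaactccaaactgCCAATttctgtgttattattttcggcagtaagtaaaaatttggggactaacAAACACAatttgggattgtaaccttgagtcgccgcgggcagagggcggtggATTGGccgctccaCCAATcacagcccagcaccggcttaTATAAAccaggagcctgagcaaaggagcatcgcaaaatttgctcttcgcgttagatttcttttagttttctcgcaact
Hist1h3c: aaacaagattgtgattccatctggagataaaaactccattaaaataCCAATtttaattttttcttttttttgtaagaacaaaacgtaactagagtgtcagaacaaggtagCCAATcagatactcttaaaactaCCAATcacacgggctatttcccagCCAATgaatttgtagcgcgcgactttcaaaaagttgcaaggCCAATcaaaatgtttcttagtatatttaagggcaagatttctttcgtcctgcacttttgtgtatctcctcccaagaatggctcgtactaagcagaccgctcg
Hist1h2af: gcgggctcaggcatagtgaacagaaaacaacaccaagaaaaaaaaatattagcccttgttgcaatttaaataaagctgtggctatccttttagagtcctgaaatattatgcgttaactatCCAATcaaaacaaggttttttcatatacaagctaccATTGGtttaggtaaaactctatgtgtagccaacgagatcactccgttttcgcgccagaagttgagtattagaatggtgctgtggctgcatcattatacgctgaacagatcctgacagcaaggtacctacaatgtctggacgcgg
Hist1h4i: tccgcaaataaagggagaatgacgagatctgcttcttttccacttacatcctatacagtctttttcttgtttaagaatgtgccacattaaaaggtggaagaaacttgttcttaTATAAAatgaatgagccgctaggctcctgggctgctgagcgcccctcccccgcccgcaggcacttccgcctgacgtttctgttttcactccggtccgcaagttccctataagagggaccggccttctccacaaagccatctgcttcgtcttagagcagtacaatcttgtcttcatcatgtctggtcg
Hist1h1c: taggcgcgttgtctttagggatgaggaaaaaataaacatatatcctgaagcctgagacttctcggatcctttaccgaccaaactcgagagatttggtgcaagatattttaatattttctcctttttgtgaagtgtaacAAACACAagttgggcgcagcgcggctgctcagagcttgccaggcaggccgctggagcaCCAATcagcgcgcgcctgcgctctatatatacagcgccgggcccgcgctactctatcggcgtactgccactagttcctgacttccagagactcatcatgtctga
Hist3h2a: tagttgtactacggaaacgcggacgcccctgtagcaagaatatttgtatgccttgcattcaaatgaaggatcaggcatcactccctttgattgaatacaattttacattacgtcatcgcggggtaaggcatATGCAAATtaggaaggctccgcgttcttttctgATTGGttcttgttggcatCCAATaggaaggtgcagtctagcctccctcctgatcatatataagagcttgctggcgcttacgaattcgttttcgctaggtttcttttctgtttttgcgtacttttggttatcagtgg

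The library held 593248944 gene UMIs (unique molecular identifiers, each standing for 1 captured RNA molecule) in 34813 barcodes. After filters and removal of called doublets, 29285 cells with a median of 12485 UMIs remained. No annotation of cells was used from the authors, so clusters were rebuilt without the histone genes and named from marker lists. The mast cell-like class held 21369 cells, the macrophage-like class 2551 and the fibroblast-like class 5142. The 7 mast cell markers (Cma1, Cpa3, Tpsb2, Mcpt4, Fcer1a, Ms4a2 and Hdc) ran from 655.6 to 21283 CPM (UMIs per 1000000 gene UMIs) in mast cell-like cells. The 7 macrophage markers ran from 190.6 to 2966 CPM in macrophage-like and from 2.01 to 11.9 in mast cell-like cells, and the 6 fibroblast markers from 82.5 to 4697 in fibroblast-like and from 2.14 to 68.4 in mast cell-like cells. The mast cell markers also reached 208.8 to 6625 CPM among the macrophage-like cells and 84.1 to 2910 CPM among the fibroblast-like. The labels name CFU-M progenitors, while 73.0% of kept cells fell into the mast cell-like class. The labels give male mice, yet 65.0% of mast cell-like, 58.7% of macrophage-like and 82.2% of fibroblast-like cells had a UMI of Xist, the transcript of the inactive X chromosome. Of the mast cell-like cells 74.5% had the Cafum tag alone, 73.0% of the macrophage-like ones had only the Macrophages tag, and the Matrigel tag was the sole one in 49.2% of the fibroblast-like ones. Class and tagged suspension thus mostly go together, but 6.09% of the fibroblast-like cells had the Cafum tag alone and are compared with mast cell-like cells of that tag below.

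Cells of each class were grouped by 6 genes of dividing cells, namely Mki67, Top2a, Birc5, Cdk1, Ube2c and Cenpf, after each cell was thinned to 5500 UMIs. Non-cycling cells had a UMI of 0 of the 6 genes, middle cells of 1 or 2, and cycling cells of 3 or more. There is 1 library and cells are not replicates, so no test was made. The 95% intervals, exact Poisson for a CPM and exact binomial for a ratio, cover counting error only. A gene is called higher or lower here where its CPM differed by 2 times or more, with at least 20 UMIs in both groups together.

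Summed over all 67 genes, clustered histones were at 909 CPM (903.8 to 913.6) in 12062 non-cycling mast cell-like cells. They were at 1388 CPM (1380 to 1397) in 5351 middle cells and at 6383.5 CPM (6362 to 6405) in 2506 cycling cells. Cycling over non-cycling, the ratio was 7.03 (6.98 to 7.07). Cycling cells were 12.6% of these mast cell-like cells and held 58.9% of their histone UMIs. The median UMI count per cell was 10498 in non-cycling and 20552.5 in cycling cells, so the groups differed in depth as well as in histone level. In cells thinned to 5500 UMIs the median was 4 histone UMIs in non-cycling, 5 in middle and 18 in cycling cells. The cycling cells were uneven, with a lower quartile of 5, an upper quartile of 55 and a highest value of 156 histone UMIs.

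Histone level was higher at each step in the number of the 6 genes seen in a mast cell-like cell. It was 909 CPM with 0 genes, 1074 with 1, 2199 with 2, 4177 with 3, 6779 with 4, 7165 with 5 and 7781 with all 6. The 1229 cells with 2 genes and the 771 cells with 3 lie on either side of the cut for cycling cells. The intervals of neighbouring steps did not overlap, and the steepest climb lay between 1 and 4 genes.

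Macrophage-like cells had less histone RNA and a ratio of the same order. Non-cycling cells were at 435 CPM (425 to 444.8, 1519 cells), middle cells at 604 (583.8 to 624.9, 416 cells) and cycling cells at 3773 (3657 to 3892, 57 cells), a ratio of 8.68 (8.35 to 9.02). From non-cycling to cycling macrophage-like cells the CPM of the 7 mast cell markers changed by ratios of 0.749 (Hdc) to 1.19 (Ms4a2). Against cycling mast cell-like cells those markers were at 0.269 to 0.796 times, against 0.280 to 0.324 times between non-cycling cells. The highest of these was Hdc, which went from 1064 to 292.8 CPM in mast cell-like cells and from 311.1 to 232.9 CPM in the macrophage-like ones. Fibroblast-like cells were at 267 CPM (263.6 to 269.7, 3442 cells), 413 (406.7 to 419.3, 1170 cells) and 2493 (2468 to 2518.5, 343 cells), a ratio of 9.35 (9.21 to 9.50). By number of genes, the level was lower with all 6 genes than with 5 in macrophage-like cells (3760 against 5739 CPM, on 10 and 13 cells) and in fibroblast-like cells (3279 against 3421 CPM). From non-cycling to cycling fibroblast-like cells the mast cell markers changed by ratios of 0.690 to 1.13. The mast cell-like class was highest and the fibroblast-like class lowest in each of the 3 groups, and the intervals of the classes did not overlap within a group. With the 6 genes counted in all UMIs of a cell, without thinning, the ratio was 5.56 for the macrophage-like class and 4.42 for the fibroblast-like one. In the grouping that kept called doublets, 34.7% of the 536 cycling fibroblast-like barcodes were called doublets, against 13.3% of the non-cycling ones, and the fibroblast-like ratio was 10.2 with them kept. Among cells with the Cafum tag alone it was 4.54 (4.27 to 4.84), on 20 cycling and 219 non-cycling fibroblast-like cells, a comparison chosen after seeing the data.

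**Figure D1:**
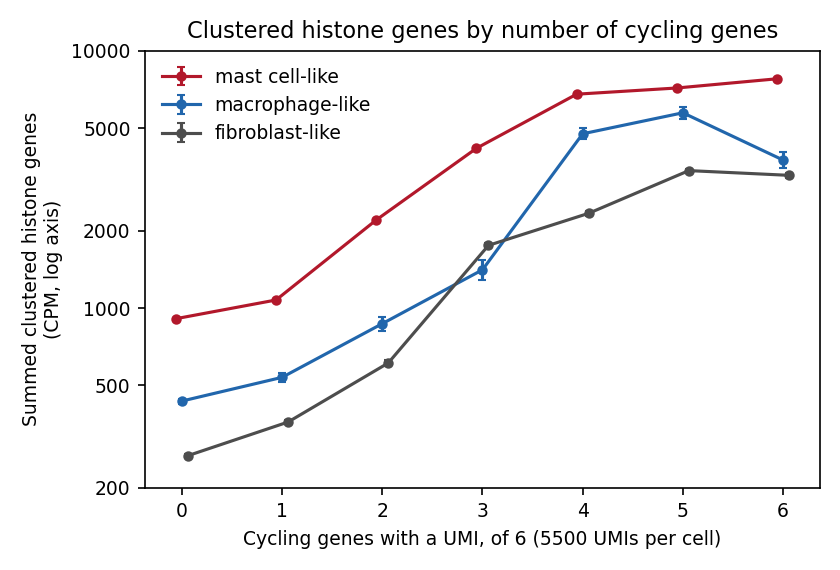
Summed CPM of the 67 clustered histone genes (log axis) against the number of the 6 cycling genes with a UMI in a cell thinned to 5500 UMIs, for 3 cell classes. Points are the CPM of summed UMIs, bars are 95% Poisson intervals, points are shifted sideways for display, and the mast cell-like line runs from 909 to 7781 CPM above the other classes.

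Summed over their copies, histone types differed in how far cycling cells stood above non-cycling cells. In mast cell-like cells H3 had the largest ratio at 16.2 (15.8 to 16.7, from 41.2 to 667.5 CPM), followed by H2A at 12.1 (12.0 to 12.3, from 193.0 to 2335 CPM). H4 was at 8.16 (8.01 to 8.30, from 106.0 to 864.1 CPM), H1 at 4.75 (4.70 to 4.79, from 397.2 to 1885 CPM) and H2B at 3.69 (3.63 to 3.75, from 171.3 to 631.4 CPM). H1 was thus the largest type in non-cycling cells with 43.7% of histone UMIs, and H2A in cycling cells with 36.6%. H2B went from 18.9% to 9.89% of histone UMIs and H3 from 4.54% to 10.5%. The kit counts molecules that carry or expose poly(A), so these shares are not ratios of protein.

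With copies summed, the order H3, then H2A, with H2B last, was the same in all 3 classes. In macrophage-like cells the ratios were 20.01 for H3, 15.9 for H2A, 10.4 for H4, 6.42 for H1 and 3.27 for H2B. In fibroblast-like cells they were 23.3 for H3, 21.6 for H2A, 7.89 for H1, 6.54 for H4 and 3.39 for H2B. H1 and H4 changed places in fibroblast-like cells, with intervals of 7.67 to 8.11 and 6.29 to 6.80. The H2A interval of fibroblast-like cells (20.9 to 22.3) overlapped that of H3, so counting error does not separate these types there. The H3 intervals of macrophage-like (17.3 to 23.1) and fibroblast-like cells (21.8 to 24.9) overlapped. The median ratio of the counted copies gave another order. In mast cell-like cells it was 13.7 for H2A, 12.9 for H3, 10.7 for H2B, 9.92 for H4 and 6.30 for H1. In macrophage-like cells it was 19.3 for H2A, 17.9 for H3, 10.9 for H2B, 7.50 for H1 and 6.43 for H4. In fibroblast-like cells it was 31.4 for H2A, 18.0 for H2B, 17.2 for H3, 13.7 for H1 and 7.92 for H4.

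**Figure D2:**
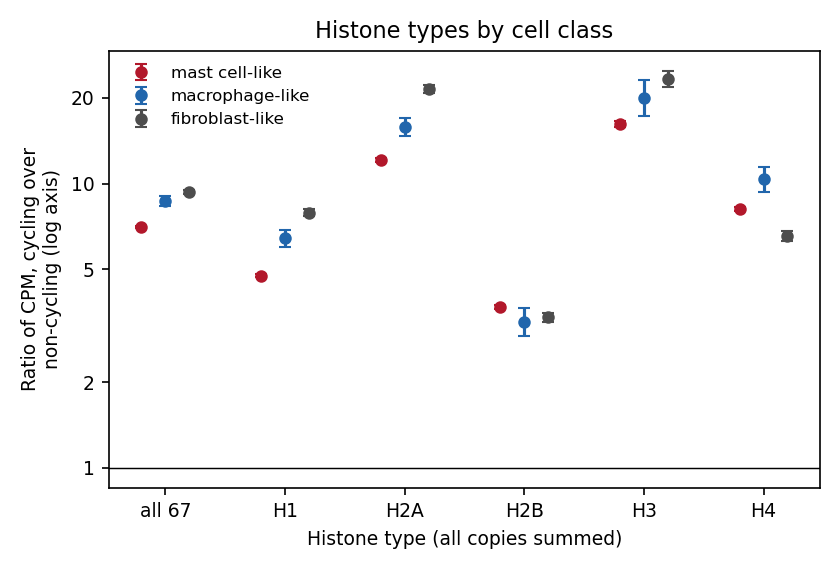
Ratio of CPM in cycling over non-cycling cells (log axis) for all 67 genes and for each histone type, copies summed, in 3 cell classes. Bars are exact 95% intervals for counting error; H3 and H2A lie highest and H2B lowest in each class.

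Every member had at least 1 UMI in mast cell-like cells, and the molecules were concentrated in few copies. The 5 members with the most UMIs held 52.9% and the 10 with the most held 73.2% of mast cell-like histone UMIs, while 25 members had under 1000 UMIs and held 1.78% together. The kit counts one end of each RNA, so levels were not divided by length, and how well each copy is primed is not known. In mast cell-like cells 55 of the 63 members with enough UMIs were at least 2 times higher in cycling cells, against 7.21% of 16734 genes. None was at least 2 times lower, against 7.44% of genes. The median ratio was 9.92 over these members and 0.959 over all genes tested. In macrophage-like cells 38 of 46 members were higher (9.60% of 13187 genes) and 1, Hist3h2a, was lower (8.30%). In fibroblast-like cells 53 of 59 were higher (7.97% of 17961 genes) and 1, Hist3h2ba, was lower (8.05%), resting on few UMIs with an interval of 0.0549 to 1.87. The median member ratio was 11.2 and 15.1 in these classes, against 1.07 and 1.02 over all genes. Of the 46 members with enough UMIs in all 3 classes, 38 were at least 2 times higher in each. The share of all genes higher in all 3 classes was not counted, so this count is a description only.

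**Figure D3:**
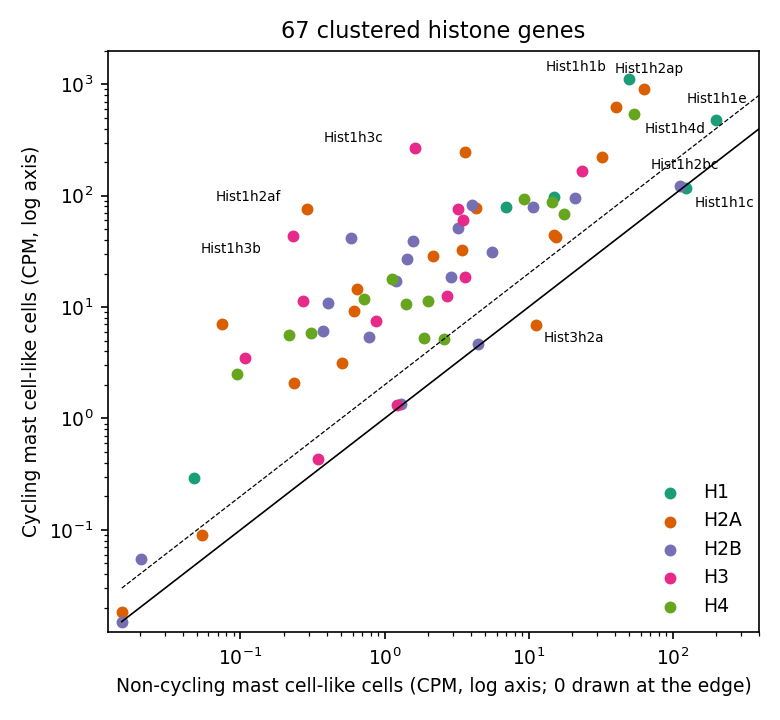
CPM of each of the 67 clustered histone genes in non-cycling (x) and cycling (y) mast cell-like cells, both on log axes, coloured by histone type. The solid line marks equal levels and the dashed line a ratio of 2; Hist1h1c, Hist1h2bc and Hist3h2a lie at or below the solid line or close to it, and most other members lie above the dashed line.

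Among H1 genes the copies split widely. Hist1h1b (chr13:21779883-21780625), which encodes H1.5, was the member with the most UMIs in mast cell-like cells (82281). It was at 49.7 CPM in non-cycling, 164.8 in middle and 1114 in cycling mast cell-like cells, a ratio of 22.4 (21.9 to 23.0). Hist1h1e, which encodes H1.4, was already at 200.9 CPM in non-cycling cells and at 476.8 in cycling cells, a ratio of 2.37 (2.33 to 2.41). Hist1h1e overlaps the H2B gene Hist1h2be on the same strand, so the counts of both are uncertain. Hist1h1c (chr13:23738808-23740367), which encodes H1.2, was at 124.5, 115.8 and 116.6 CPM in the 3 groups, a ratio of 0.936 (0.910 to 0.963). Hist1h1b made up 12.5% of H1 UMIs in non-cycling and 59.1% in cycling cells, while Hist1h1c, level in CPM, went from 31.4% to 6.19% of H1 UMIs. In fibroblast-like cells Hist1h1b went from 9.30 to 385.3 CPM and Hist1h1c from 38.0 to 54.1 CPM. The Hist1h1c ratio there was 1.42 (1.32 to 1.53). In macrophage-like cells Hist1h1c went from 69.7 to 124.9 CPM, a ratio of 1.79 (1.49 to 2.15). Without Hist1h1b the summed ratio of all members in mast cell-like cells was 6.13.

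Among H2A genes Hist1h2ap led in all 3 classes. It was at 63.1 CPM in non-cycling, 148.1 in middle and 899.7 in cycling mast cell-like cells, a ratio of 14.3 (14.0 to 14.6). Hist1h2ae followed, from 40.3 to 623.4 CPM, and Hist2h2ac, from 32.1 to 222.2 CPM. Hist1h2af (chr13:23533906-23534304) had the largest ratio of all members at 260 (193.0 to 360.3), from 0.291 CPM in non-cycling to 5.84 in middle and 75.7 in cycling cells. Hist1h2ah had a ratio of 94.0 (52.0 to 189.9), on 467 UMIs, and Hist1h2ab one of 67.5 (61.9 to 73.7). These copies had few UMIs in cells without cycling genes. Hist3h2a (chr11:58954685-58956830) went the other way, at 11.2, 9.22 and 6.90 CPM, a ratio of 0.616 (0.550 to 0.690). Its ratio was 0.481 (0.229 to 0.897) for the macrophage-like class and 0.691 (0.560 to 0.844) for the fibroblast-like one. Hist3h2a overlaps Trim17 on its own strand and Gm44313 on the other, so its counts are uncertain.

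Among H2B genes the leading copy was nearly level across the groups. Hist1h2bc (chr13:23684199-23692908) was at 111.7, 124.2 and 122.0 CPM in the 3 groups of mast cell-like cells, a ratio of 1.09 (1.06 to 1.12). It held 65.2% of H2B UMIs of non-cycling cells and 19.3% of those of cycling cells. Its ratio was 0.883 (0.676 to 1.14) for the macrophage-like class and 1.13 (1.06 to 1.21) for the fibroblast-like one, so Hist1h2bc was close to level in each class. Hist1h2be went from 20.98 to 95.2 CPM and Hist1h2bn from 10.8 to 78.5 CPM. Hist1h2bm had the largest H2B ratio at 70.4 (56.8 to 88.3), from 0.588 to 41.4 CPM. Hist2h2be was at 4.48 and 4.65 CPM, a ratio of 1.04 (0.8944 to 1.2), and Hist3h2ba at 1.31 and 1.36 CPM, a ratio of 1.04 (0.789 to 1.37). Both intervals include a ratio of 1.

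Among H3 genes Hist1h3c (chr13:23744973-23745602) went from 1.64 CPM in non-cycling to 19.6 in middle and 266.8 in cycling mast cell-like cells, a ratio of 163 (143.6 to 185.9). Hist1h3b (chr13:23752267-23752886) had a ratio of 188 (133.8 to 271.5), from 0.230 to 43.1 CPM. Both were under 2 CPM in cells without cycling genes. Hist1h3e, at 23.5 and 166.5 CPM, had a ratio of 7.09, and Hist1h3f, at 3.22 and 75.3 CPM, one of 23.4. Hist2h3c1 was at 1.22 and 1.31 CPM, a ratio of 1.07 (0.806 to 1.42), and Hist2h3c2 had a ratio of 1.26 (0.744 to 2.09), so neither differed beyond counting error.

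Among H4 genes Hist1h4d (chr13:23581598-23582735) held the most UMIs in every class. It was at 54.3, 79.0 and 538.5 CPM in the 3 groups of mast cell-like cells, a ratio of 9.92 (9.68 to 10.2). Hist1h4i, from 17.5 to 68.5 CPM, had a ratio of 3.91 and Hist1h4c, from 14.5 to 88.2 CPM, one of 6.07. The H4 ratios ran from 1.99 (1.70 to 2.32) for Hist2h4 to 26.5 (15.3 to 49.7) for Hist1h4b. In fibroblast-like cells Hist1h4d was at 27.4 and 195.3 CPM, a ratio of 7.13 (6.78 to 7.50), below that of mast cell-like cells.

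There were 6 members that fell short of a ratio of 2 in all 3 classes, namely Hist1h1c, Hist1h2bc, Hist2h2be, Hist2h3c1, Hist3h2a and Hist3h2ba. In mast cell-like cells Hist2h3c2 and Hist2h4 did so as well, in macrophage-like cells Hist1h3a and Hist2h4, and in fibroblast-like cells no further member. Several of these rested on few UMIs in cycling macrophage-like cells, with intervals that reach above 2. They were Hist2h2be (3 UMIs, 0.245 to 3.89), Hist2h3c1 (2 UMIs, 0.148 to 5.16) and Hist3h2ba (9 UMIs, 0.480 to 2.10). Hist1h3a (3 UMIs, 0.373 to 6.32) and Hist2h4 (3 UMIs, 0.213 to 3.34) were further ones. By array, 49 of 51 Hist1 members with enough UMIs were at least 2 times higher in cycling mast cell-like cells, as were 5 of 9 Hist2 members, 0 of 2 Hist3 members and the Hist4 member. In mast cell-like cells 4 members had under 20 UMIs, Hist2h2aa2 with 19, Hist1h2bq with 6, and Hist1h2aa and Hist1h2ba, known from testis, with 1 each.

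Copies that encode the same protein differed widely in level. All 13 H4 genes encode 1 protein, yet in cycling mast cell-like cells they ran from 2.51 CPM for Hist1h4b to 538.5 for Hist1h4d. Another protein is shared by 9 H2A genes, which ran from 2.09 CPM for Hist1h2ao to 899.7 for Hist1h2ap. By the longest open frame of each transcript, 6 H3 genes share a protein of 136 residues. They ran from 7.48 CPM for Hist2h3b to 266.8 for Hist1h3c. For Hist2h3c1 and Hist2h3c2 that frame had 181 residues, so they were set apart. Whether they encode the same H3 protein was not settled by this. Their levels were 1.31 and 0.436 CPM. Near-identical copies can split or lose reads. A 50-base window of a member's transcript was counted as its own if no transcript of another gene held it on either strand. Genes that overlap a member were part of that search, so the share also falls with overlap. Under 50% of the windows were their own in 34 members, which held 30.2% of mast cell-like histone UMIs. Hist1h2ap, with 6.93% of its windows its own, and Hist1h2af, with 6.00%, are among them, so that their levels are uncertain, while Hist1h1b (100%), Hist1h1c (91.5%) and Hist1h4d (89.8%) are largely distinct. The members with 50% or more of their own windows had a median ratio of 6.14 and the others 14.6. A gene on the same or the other strand overlaps 24 members, with 7 overlapped on their own strand and 21 on the other. Hist1h1e and Hist1h2be overlap each other on the same strand, and Hist1h2ap and Hist1h2af have a gene on the other. The use of strand in counting is not given in the sources used here.

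The ratio moved with how far the annotated transcript runs past the stop codon (GENCODE M21). Of the 23 members annotated with 1 to 99 bases after the stop codon, all 23 were at least 2 times higher in cycling mast cell-like cells, with a median ratio of 20.3. The 11 counted members with no base annotated there were also all higher, with a median of 16.3. With at least 100 and under 500 bases, 11 of 13 were higher and the median was 6.90. With 500 bases or more, 10 of 16 were higher and the median was 2.87. Hist1h1c (880 bases), Hist1h2bc (742) and Hist3h2a (1700) belong to the last set, as does Hist1h4d (822) with its ratio of 9.92. Of the members with AATAAA or ATTAAA after the stop codon, signals for poly(A) addition, 14 of 21 were higher with a median of 4.54, against 41 of 42 with a median of 15.4 for the others. The 23 members annotated at least 100 bases past their stem-loop had a median of 5.17 and the other 40 counted members 15.4. Long annotated ends thus went with high levels in non-cycling cells, where the median was 11.2 CPM for members with 500 bases or more and 0.872 CPM for those with 1 to 99. Whether the kit's need for poly(A) has a part in this was not tested.

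**Figure D4:**
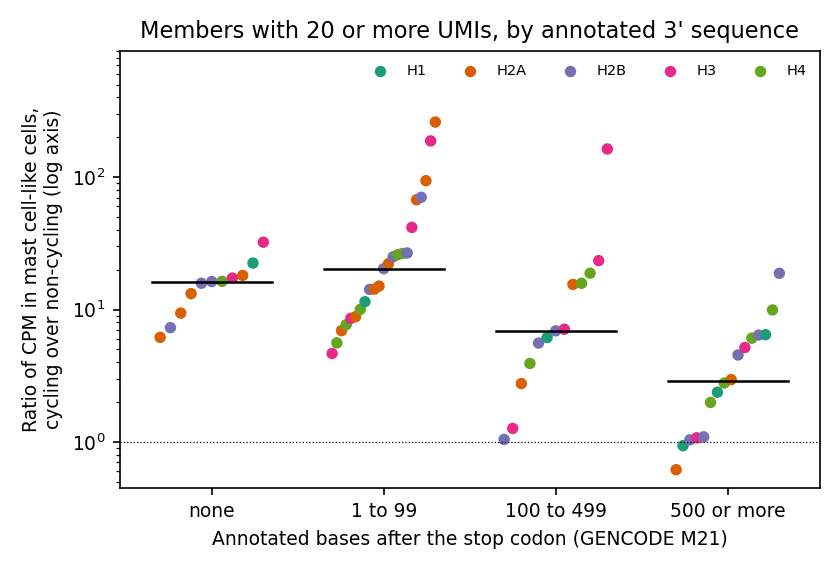
Ratio of CPM in cycling over non-cycling mast cell-like cells (log axis) of the 63 members with at least 20 UMIs, by the number of annotated bases after the stop codon. Each point is 1 gene coloured by histone type and spread sideways in order of ratio, and horizontal bars are medians, which fall from 20.3 for 1 to 99 bases to 2.87 for 500 or more.

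Within the mast cell-like class the histone level followed S phase genes, but in cells with cycling genes and not in the others. S phase was scored by the summed UMIs of 12 genes (Mcm2 to Mcm7, Pcna, Cdc6, Cdc45, Uhrf1, Tyms and Rrm2) in thinned cells, and the cells were ranked and cut into 5 bins of equal size (quintiles). The lowest quintile had 0 such UMIs and the highest had 2 to 21; cells with equal sums were placed by chance, so neighbouring low quintiles share sums. Summed histones were at 1021, 1058, 1152, 1510 and 4483 CPM from the lowest to the highest quintile, a ratio of 4.39 (4.35 to 4.43) between the ends. In non-cycling cells the 5 quintiles ran only from 903 to 917 CPM. In middle cells they were between 971 and 1027 CPM in the lowest 4 quintiles and at 2251 in the highest. In cycling cells they were at 1925, 2417, 2859, 4376 and 8768 CPM, and the 1300 cells of the highest quintile had a median of 48 histone UMIs after thinning, against 6 in the 236 cells of the lowest. Cells of the highest quintile also had more UMIs, with a median of 22660 in its cycling cells against 15688 in those of the lowest quintile.

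**Figure D5:**
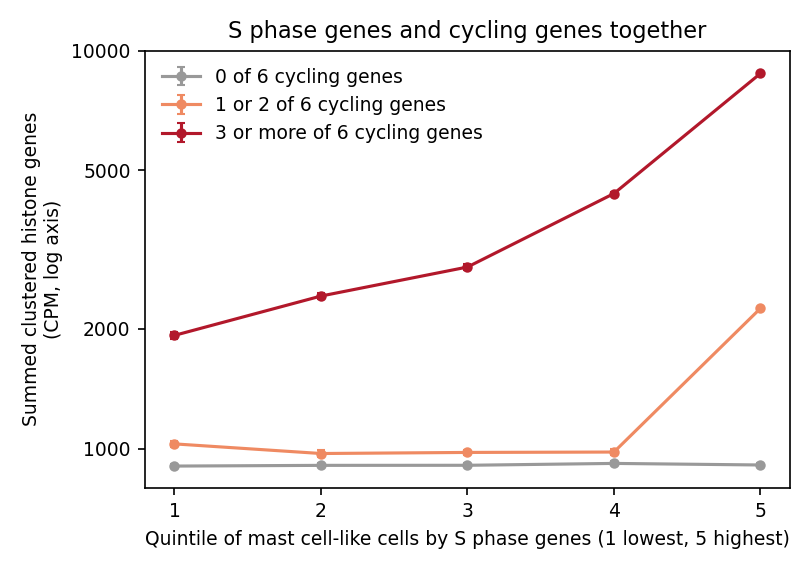
Summed CPM of the 67 clustered histone genes (log axis) in mast cell-like cells, by quintile of S phase gene UMIs (x) and number of cycling genes (colour). Points are CPM of summed UMIs with 95% Poisson intervals, most smaller than the points; cells without cycling genes stay between 903 and 917 CPM, while cells with 3 or more go from 1925 to 8768.

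Clusters within the class divided the cycling cells unevenly. Of the 2506 cycling mast cell-like cells 2425 lay in 1 cluster, where the ratio to its own non-cycling cells was 7.88 (7.78 to 7.97). In the other two mast cell-like clusters, cells with 3 or more cycling genes were few. Their ratios were 1.43 (1.36 to 1.52) with 56 such cells and 1.52 (1.39 to 1.66) with 25. Histone and cell cycle genes were left out of the clustering, and the first cluster was still led by Hist1h3c, Hist1h1b and Hist1h2ab with Nusap1, Pclaf and Top2a.

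Single members followed the sum over the 15 bins of S phase quintile and cycling genes to different degrees, given here as Pearson's r over bins of cells that share 1 library. The sum includes the member itself, which raises r for members with many UMIs, and members with as few as 1 UMI are among the 67. Pearson's r was 0.95 or more for 47 of 67 members. The share of all genes at that level was not counted, so the count is a description only. Values were 0.999 for Hist1h3i, 0.998 for Hist1h2ap and 0.996 for Hist1h1b. It was 0.714 for Hist1h4i, -0.147 for Hist1h2bc, -0.196 for Hist1h1c and -0.650 for Hist3h2a, the lowest. Among genes outside the set, those most like the sum were Esco2 (0.998), which acetylates cohesin in S phase, Cdca5 (0.987), the cohesin regulator sororin, Tk1 (0.985), which makes thymidine phosphate, Pbk (0.985), a mitotic kinase, and Fbxo5 (0.981), an inhibitor of the anaphase-promoting complex. None of the 10 most alike genes was used to make the bins.

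Genes listed for the same pathway varied less. Of the 12 S phase genes 11 were at least 2 times higher in cycling mast cell-like cells, with a median ratio of 3.48, and of 9 further S phase genes 8 were, with a median of 5.84. Of the 11 replacement histones 5 were, with a median of 1.53. Those were Cenpa, the H3 of centromeres, at 15.7 (24.0 to 376.1 CPM), H2afx at 8.19 (18.2 to 148.9 CPM), H2afz at 3.56 (1217 to 4326 CPM), H1fx at 3.44 (9.24 to 31.8 CPM) and H2afv at 2.17 (166.9 to 362.0 CPM). H3f3b was at 2208 and 2278 CPM, a ratio of 1.03, and H3f3a at 1024 and 1058 CPM, also 1.03. The replacement gene H3f3b alone thus exceeded the summed clustered genes in non-cycling cells, in UMIs of this kit.

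Of 15 listed genes for histone mRNA processing and transcription, 2 were at least 2 times higher in cycling mast cell-like cells, and the median was 1.38. Lsm11 had a ratio of 2.64 (2.35 to 2.98), from 3.87 to 10.2 CPM. Zfp473 had one of 4.32 (2.64 to 7.19), but at very low levels, from 0.189 to 0.817 CPM. Slbp, which binds the stem-loop, was at 58.4 and 105.4 CPM, a ratio of 1.80 (1.74 to 1.87), and Npat, a transcription factor of histone genes, at 30.4 and 39.3 CPM, a ratio of 1.29 (1.23 to 1.36). Of 16 listed histone chaperone and deposition genes 6 were higher, with a median of 1.62. Asf1b, an H3-H4 chaperone, had a ratio of 20.6 (4.52 to 93.3 CPM), Chaf1a, of the chromatin assembly factor, 5.52 (4.92 to 27.1 CPM), and Nasp, an H1 and H3-H4 chaperone, 4.11 (35.8 to 147.0 CPM). Hat1, Rbbp7 and Ssrp1 had ratios of 2.39, 2.68 and 2.67. Hira (1.19), Daxx (1.06) and Atrx (0.942), which place the replacement histone H3.3, stayed close to 1.

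Non-cycling macrophage-like cells had 0.479 times (0.467 to 0.490) the summed histone CPM of non-cycling mast cell-like cells, and non-cycling fibroblast-like cells 0.293 times (0.290 to 0.297). Of 59 members with enough UMIs, 29 were at least 2 times lower in macrophage-like cells, against 15.4% of 16861 genes, and 2 were at least 2 times higher, against 21.3%. Of 60 members, 49 were at least 2 times lower in fibroblast-like cells, against 16.2% of 18964 genes, and 0 were at least 2 times higher, against 34.6%. Between cycling cells the ratios to mast cell-like cells were 0.591 (0.573 to 0.610) for the macrophage-like class, where the mast cell markers were at 0.269 to 0.796 times, and 0.391 (0.387 to 0.395) for the fibroblast-like one, where they were at 0.132 to 0.292 times. Of the types, H2B (0.606) was least reduced in non-cycling macrophage-like cells, and H4 (0.4504) and H2B (0.439) in fibroblast-like cells.

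Among cells with the Cafum tag alone, 219 non-cycling fibroblast-like cells were at 403.9 CPM and 9017 mast cell-like cells at 890.4 CPM, a ratio of 0.454 (0.437 to 0.471), with the mast cell markers at 0.293 to 0.351 times. Between 20 cycling fibroblast-like and 2041 cycling mast cell-like cells of that tag the ratio was 0.275 (0.262 to 0.289), with the markers at 0.353 to 0.583 times. The Cafum-tagged classes thus kept the direction seen over all tags, with more mast cell RNA in the fibroblast-like cells. Macrophage-like cells with the Cafum tag alone were too few for this, with 4 non-cycling and 0 cycling cells.

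Mast cell RNA was present in the other classes, and its values stand beside these levels. The 7 mast cell markers were at 0.280 to 0.324 times the mast cell-like level in non-cycling macrophage-like cells and at 0.113 to 0.126 times in non-cycling fibroblast-like cells. Set against all mast cell-like cells, cycling ones included, the markers in non-cycling fibroblast-like cells were at 0.114 to 0.147 times and the summed histones at 0.128 times (0.126 to 0.129). By member, 42 of 64 were below the lowest marker there, 6 within the marker range and 16 above it. In non-cycling macrophage-like cells the markers were at 0.283 to 0.375 times and the summed histones at 0.208 times (0.203 to 0.213), with 46 of 63 members below the markers, 7 within and 10 above. The shares of all genes below, within and above the markers were not counted, so these member counts are a description only. Hist1h2bc, at 0.535 times (fibroblast-like) and 0.582 times (macrophage-like), and Hist1h1c, at 0.313 and 0.574 times, were above the markers in both. The part of mast cell RNA in the histone levels of the other classes was not tested.

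Over all cells of a class, 2 members were at least 2 times higher in macrophage-like than in mast cell-like cells, the same 2 as in non-cycling cells. The share of all genes was not counted over all cells. In non-cycling cells it was 21.3% of 16861 genes, against 2 of 59 members, so such members were fewer than among all genes. Hist3h2ba, an H2B gene, was at 7.71 CPM on 200 UMIs, 6.13 times (5.13 to 7.30) its mast cell-like level of 1.26 CPM. In non-cycling cells alone it was at 7.89 CPM in macrophage-like, 1.31 in mast cell-like and 0.275 in fibroblast-like cells. Hist3h2a, its neighbour on chromosome 11, was at 18.1 CPM, 1.83 times (1.65 to 2.02) the mast cell-like level. Hist2h3c2 was at 2.61 times (1.61 to 4.06) on 25 UMIs and Hist4h4 at 1.30 times (1.04 to 1.62) on 92. Hist2h3c1 (1.12, 0.777 to 1.57) and Hist1h1t (1.65, 0.420 to 4.74, on 4 UMIs) had intervals that include 1, as had Hist1h1t in fibroblast-like cells (1.10, 0.565 to 2.10, on 17 UMIs).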

How the data were processed

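The authors deposited raw UMI counts per gene and barcode, made with Cell Ranger 7.0.0 on mm10 per the submitters' processing notes, with no normalization. The unassigned sample of the 2, a MULTI-seq barcode library, was not analysed here. Barcodes were kept with at least 500 genes, 1000 UMIs and at most 10% mitochondrial UMIs (33964 of 34813). Scrublet (scanpy 1.11.5) called 4726 doublets (13.6%, threshold 0.529, expected 27.9%), and those that passed the filters were removed. Tag features (21.9% of UMIs) stayed out of totals. A tag was called at 2 times its background or more, and Cafum at 1.4 times or more. Cells were clustered with Leiden (leidenalg 0.10.2, resolution 0.5, 2000 variable genes, 30 components, 15 neighbours), without 315 genes (listed, mitochondrial and ribosomal), and named from marker lists. Cells under 5500 UMIs were left out of groups, which dropped 1450 mast cell-like cells and, in the other classes, 559 (macrophage-like) and 187 (fibroblast-like). CPM are summed counts per 1000000 gene UMIs, with exact intervals, which cover counting error only. The ratio step was run on simulated Poisson counts. These hold no spread between cells, so the run cannot test the intervals against such spread. Members named are the 3 with the most UMIs per type, the 6 largest and 6 smallest ratios in mast cell-like cells, and those above mast cell-like cells elsewhere. Members, lists and rules were chosen with earlier results of these data known.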

Additional observations from a re-analysis of the deposited data

How the results depend on the processing

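No alternative reversed a ratio, and the number of members at least 2 times higher in cycling mast cell-like cells stayed between 50 (at a fold of 4) and 56 over the 10 alternatives tried for it, against 55. In the order mast cell-like, macrophage-like, fibroblast-like and highest over lowest S phase quintile, the ratios (7.03, 8.68, 9.35 and 4.39) were 7.16, 12.8, 10.2 and 4.87 with called doublets kept. They were 7.56, 10.2, 9.71 and 3.66 with cells thinned to 3000 UMIs, 5.06, 5.56, 4.42 and 4.24 without thinning, and 6.13, 7.67, 8.19 and 3.84 without Hist1h1b. With clusters at resolution 1 they were 7.96, 12.7, 9.40 and 5.01, and with at most 5% mitochondrial UMIs 7.04, 7.97, 9.32 and 4.41. With cycling set at 5 or more of the 6 genes the first 3 were 8.21, 11.2 and 12.7, and with a cycling gene counted at 2 UMIs 7.98, 11.2 and 10.8. Among cells with the Cafum tag alone, an alternative chosen after seeing the data, the mast cell-like ratio was 7.50 and the fibroblast-like ratio 4.54, and 54 members were at least 2 times higher. The macrophage-like ratio rested on 57 cycling cells, and on 29 with doublets kept or at resolution 1, where some clusters with mast cell markers stayed unnamed. At resolution 1 the macrophage-like class held 1660 cells in place of 2551. An unnamed cluster of 917 cells there was positive for all 7 mast cell and all 7 macrophage markers. With doublets kept the class held 1651 cells and such an unnamed cluster 1761. The causes of the moves in the ratios were not tested. No paired analysis was possible because there is 1 library.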
